A study of Mus musculus with 8 samples.

Results

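Mouse E14Tg2A embryonic stem (ES) cells, a 129/Ola line, were followed through neural differentiation. Messenger RNAs of the oxidative phosphorylation machinery were examined at 4 stages. These were ES cells at day 0 in medium with leukemia inhibitory factor (LIF) and serum, and epiblast-like aggregates (ELA) at day 2. Neural progenitor cells (NPC) at day 6 and neural precursors (NPC/Neu) at day 10 followed. The last 3 were in minimal medium without LIF, floating for ELA and attached to laminin afterwards. From day 6 to day 10 this medium also lacked the B27 supplement, so NPC/Neu differ from NPC in supplement as well. At each stage, total RNA and the cytoplasmic RNA precipitated with an antibody against all Argonaute (Ago) proteins were hybridized to 1-colour Agilent arrays, giving 8 arrays with 1 array per condition. RNA of 3 independent experiments was pooled on each array, so no condition has a replicate and no p-value is given. The genes were chosen by symbol, as every gene whose name on the array starts with Nduf, Uqcr, Cox4 to Cox8 or Atp5. They are 86 of the 36163 gene names on the array, and are read by 120 of its 55681 probes.

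Oxidative phosphorylation takes place in the inner mitochondrial membrane. Complexes I, III and IV pass electrons from NADH to oxygen and pump protons out of the matrix, and ATP synthase uses the returning protons to make ATP. Most subunits are encoded in the nucleus and translated in the cytosol, where their messenger RNAs can meet Ago, the protein that holds microRNAs and is led by them to matching messenger RNAs. Naive ES cells are known to respire, primed pluripotent cells to rely more on glycolysis, and neurons to depend on respiration.

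The 86 genes fell into 7 complex I core subunits, 31 complex I accessory subunits, 4 complex I assembly factors, 8 complex III subunits, 18 genes of complex IV subunits, 5 of the F1 part of ATP synthase and 10 of its membrane part and stalk. The remaining 3, Cox4nb, Atp5s and Atp5sl, share the names without being subunits. Ndufa4 and its relative Ndufa4l2 are counted with complex I by name, although the NDUFA4 protein is found in complex IV. On every array, 82 of the 86 genes had a probe well above background. The other 4 were Cox6a2, Cox7b2, Cox8b and Cox8c.

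Marker genes of the labels were read on the 4 total RNA arrays, and those of a list did not all move alike. Zfp42, a marker of naive pluripotency, had a log2 signal of 15.97 in ES, 12.36 for ELA, 8.71 for NPC and 9.76 for NPC/Neu. Klf4, of that list, was at 12.86 in ES, lowest in ELA at 9.85, and at 10.90 in NPC/Neu. Esrrb was at 15.19 in ES, 9.59 in NPC and 11.55 in NPC/Neu. Fgf5, a marker of the primed epiblast, was brightest in ELA at 14.78, against 11.96 in ES, whereas of the same list Otx2 was nearly level from ELA (16.06) to NPC/Neu (15.97) and Eomes was brightest in NPC/Neu (11.33, against 9.29 in ELA). Sox1, a neural progenitor marker, was at 8.32 in ES and 10.59 in NPC, and Tubb3, a neuronal tubulin, reached 17.01 in NPC/Neu. Of 4 mesendoderm markers, 4 were above background in ES and 3 in NPC/Neu, and Foxa2, a gene of endoderm and floor plate, was at 6.76 in ES and 10.10 in NPC/Neu. From ES to NPC/Neu, T went from 7.19 to 9.31, Sox17 from 6.82 to 7.16 and Gata4 from 7.64 to 6.98. For Sox17 and Foxa2, only 1 of 2 probes was above background in ES. The part of such cells in the results was not tested. Between 53.4 and 61.2% of the spots were well above background on each array, and no spot was saturated. The ES Ago-RNA array had the brightest upper quartile of mean signal, 3039, against 1060 to 1774 on the others.

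Association with Ago was expressed as E, the log2 signal in Ago-RNA minus that in total RNA of the same stage after quantile normalization of all arrays, and 1 was taken as the threshold on this scale. Zero is thus the level of an average gene on the array and not an absence of binding. Ago-RNA came from the cytoplasm alone, whereas no such step is stated for total RNA. For the 399 probes printed in 10 spots, the spread of E between spots (SD) was 0.21 in ES, 0.25 for ELA, 0.22 for NPC and 0.23 for NPC/Neu, which covers spot noise only.

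MicroRNA seeds and the places that match them in the 3′ UTRs of genes with a high E are shown first. The mature sequences below are from RefSeq (GRCm38.p6), with the seed, bases 2 to 8, in capitals. miR-294 belongs to a cluster abundant in mouse ES cells, miR-20a and miR-92a to the miR-17-92 cluster, and let-7a, miR-9 and miR-125b are known from differentiated and neural cells. Of 8 microRNAs looked for, miR-124 and miR-302a had no sequence to print.
mmu-miR-294-3p: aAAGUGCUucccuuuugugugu
mmu-miR-20a-5p: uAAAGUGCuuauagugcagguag
mmu-miR-92a-3p: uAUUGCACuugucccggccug
mmu-let-7a-5p: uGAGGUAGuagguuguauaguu
mmu-miR-9-5p: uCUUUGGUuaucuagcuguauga
mmu-miR-125b-5p: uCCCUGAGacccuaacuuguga

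None of the 6 seeds is shared, although those of miR-294 and miR-20a are alike when shifted by 1 base. The median 3′ UTR of the 86 genes was 146 bases long, against 668 for all 14440 genes with a coding length and an E in ES. A 7-base match to the miR-294 seed was present in the 3′ UTR of 3 of the 86 genes (3.49%), against 11.1% of 19322 genes. The matches to miR-20a were in 1 gene (1.16%, against 9.36%), to miR-92a in 3 (3.49%, against 5.10%), to let-7a in 2 (2.33%, against 6.84%), to miR-9 in 1 (1.16%, against 9.34%) and to miR-125b in 7 (8.14%, against 10.4%). These genes and microRNAs were chosen after their values were known, and a match is a description and not a site.

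An E of 1 or higher at some stage was reached by 7 genes. Of these, Ndufs1, Cox5a, Cox6b2 and Ndufa4 had no match to the 6 seeds in their annotated 3′ UTRs of 235, 153, 128 and 162 bases, and neither had Atp5a1. Ndufa5 had 1 match, to miR-92a, at base 33 of a 57-base 3′ UTR. Ndufs4 had 1 match to miR-294, at base 223, and 1 to miR-125b, at base 348, of a 968-base 3′ UTR. The 30 bases around each match follow, with the match in capitals, on mm9.
Ndufa5, miR-92a, chr6:24468672-24468701, minus strand: gggaattaaatGTGCAATtaaatgctctgt
Ndufs4, miR-294, chr13:115078730-115078759, minus strand: tacgaaatcagAGCACTTagagtttaccaa
Ndufs4, miR-125b, chr13:115078605-115078634, minus strand: actaaaccactCTCAGGGaaattcttttgt

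The first question was how much of these transcripts was found with Ago, relative to total RNA, at each stage. In ES cells, oxidative phosphorylation genes lay below the average gene in Ago-RNA relative to total RNA. A low E is a low ratio and not a low signal in Ago-RNA. Their median E was -1.06 (quartiles -1.44 and -0.54, 84 genes measured), against 0.04 for all 22458 genes (quartiles -0.47 and 0.51), and 78 of the 84 had a negative E. An E of -1 or lower was found for 45 of 84, or 53.6%, where the share over all genes was 11.6%. Only Ndufs1 and Atp5a1 had an E of 1 or higher, 2.38% of the genes measured, against 10.8% of all.

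In ELA the genes lay close to the average, with a median E of -0.21 against -0.03 for all genes. None of 84 had an E of -1 or lower (2.59% of all genes), and 2, Ndufa5 and Cox6b2, had 1 or higher (2.38%, against 3.85%). The spread of all genes was narrower here as well, with quartiles at -0.29 and 0.27. In NPC the median was -0.35 against 0.06 for all genes, 10 of 82 genes had an E of -1 or lower (12.2%, against 6.18%) and 5 had 1 or higher (6.10%, against 5.90%), a share near the background. With each fraction normalized apart, 1 gene had -1 or lower, against 3.91% of all genes, and 8 had 1 or higher, against 11.9%. In NPC/Neu the median was -0.74 against 0.09, with 26 of 82 at -1 or lower (31.7%, against 11.8%) and 3 at 1 or higher (3.66%, against 12.5%). The count at -1 or lower was 17 with 75th-percentile scaling (17.0% of all genes) and 15 with each fraction normalized apart (8.23% of all). The members' E was thus lowest in ES, nearest to the average in ELA, and lower again by NPC/Neu.

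**Figure D1:**
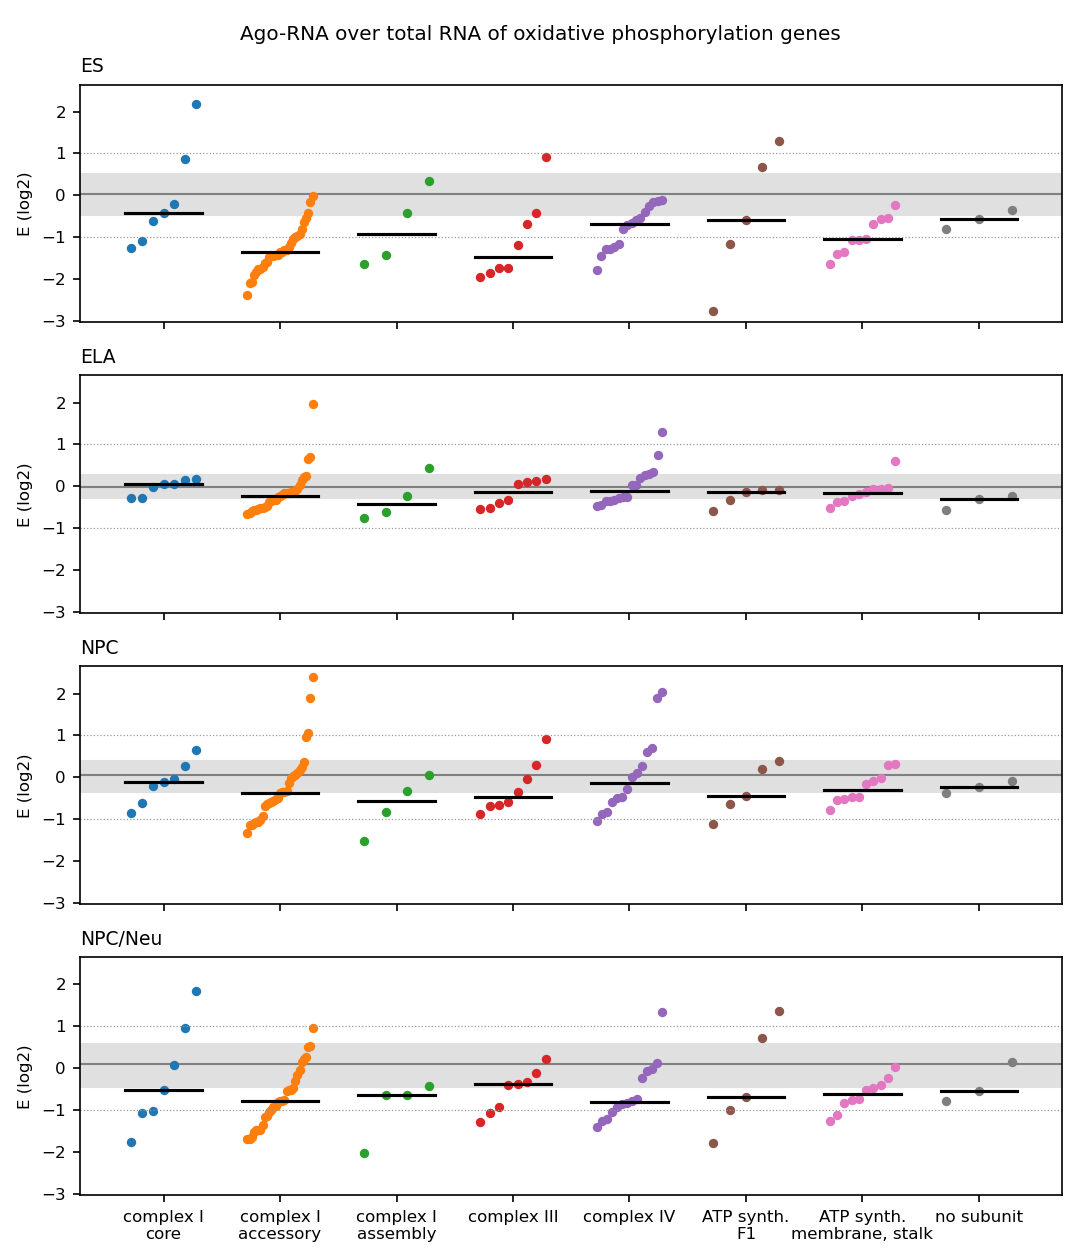
E, the log2 difference between Ago-RNA and total RNA (y axis), of every measured gene by complex (x axis) at the 4 stages, 1 point per gene from 1 array pair; black bars are medians, the grey line and band are the median and quartiles of all genes, and dotted lines mark -1 and 1. Most points lie below the grey band in ES (medians from -1.46 in complex III to -0.43 in the complex I core, or 0.02 for the core when each fraction was normalized apart) and within or near it in ELA.

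By complex, the lowest medians in ES were those of complex III, -1.46 (8 genes), and the complex I accessory subunits, -1.36 (31 genes), followed by the membrane part and stalk of ATP synthase, -1.05 (10 genes). Complex IV had a median of -0.69 (16 genes), F1 of -0.60 (5 genes) and the complex I core of -0.43 (7 genes). An E of -1 or lower was found for 22 of 31 accessory subunits of complex I, 5 of 8 genes of complex III, 6 of 16 of complex IV, 2 of 5 of F1, 6 of 10 of the membrane part and stalk, and 2 of 7 of the complex I core. In ELA all of these medians lay between -0.22 and 0.05. With Ago-RNA and total RNA arrays quantile normalized apart from each other, the core's median in ES was 0.02 and turned sign, whereas those of the other complexes stayed below 0, from -1.20 to -0.18.

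Within complexes, the genes differed by more than the complexes did. In F1, the catalytic head of ATP synthase, Atp5a1 (the alpha subunit) had an E of 1.30 in ES and Atp5b (beta) of 0.67, whereas Atp5e (epsilon) had -2.77, the lowest of all members. In the complex I core, Ndufs1, the largest subunit, stood at 2.18 and Ndufv1, which binds NADH, at 0.86, against -1.26 for Ndufs8. In complex III, Uqcrc1, a core protein, had 0.91 against -1.94 for Uqcrq. In complex IV, all 16 genes were below 0, from -1.78 for Cox7a2 to -0.11 for Cox6a1, although Cox6b2 turned to 0.34 with each fraction normalized apart. In the membrane part and stalk of ATP synthase, the range ran from -1.64 for Atp5o to -0.24 for Atp5g3, and among the assembly factors from -1.64 for Ndufaf2 to 0.33 for Ndufaf4.

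**Figure D2:**
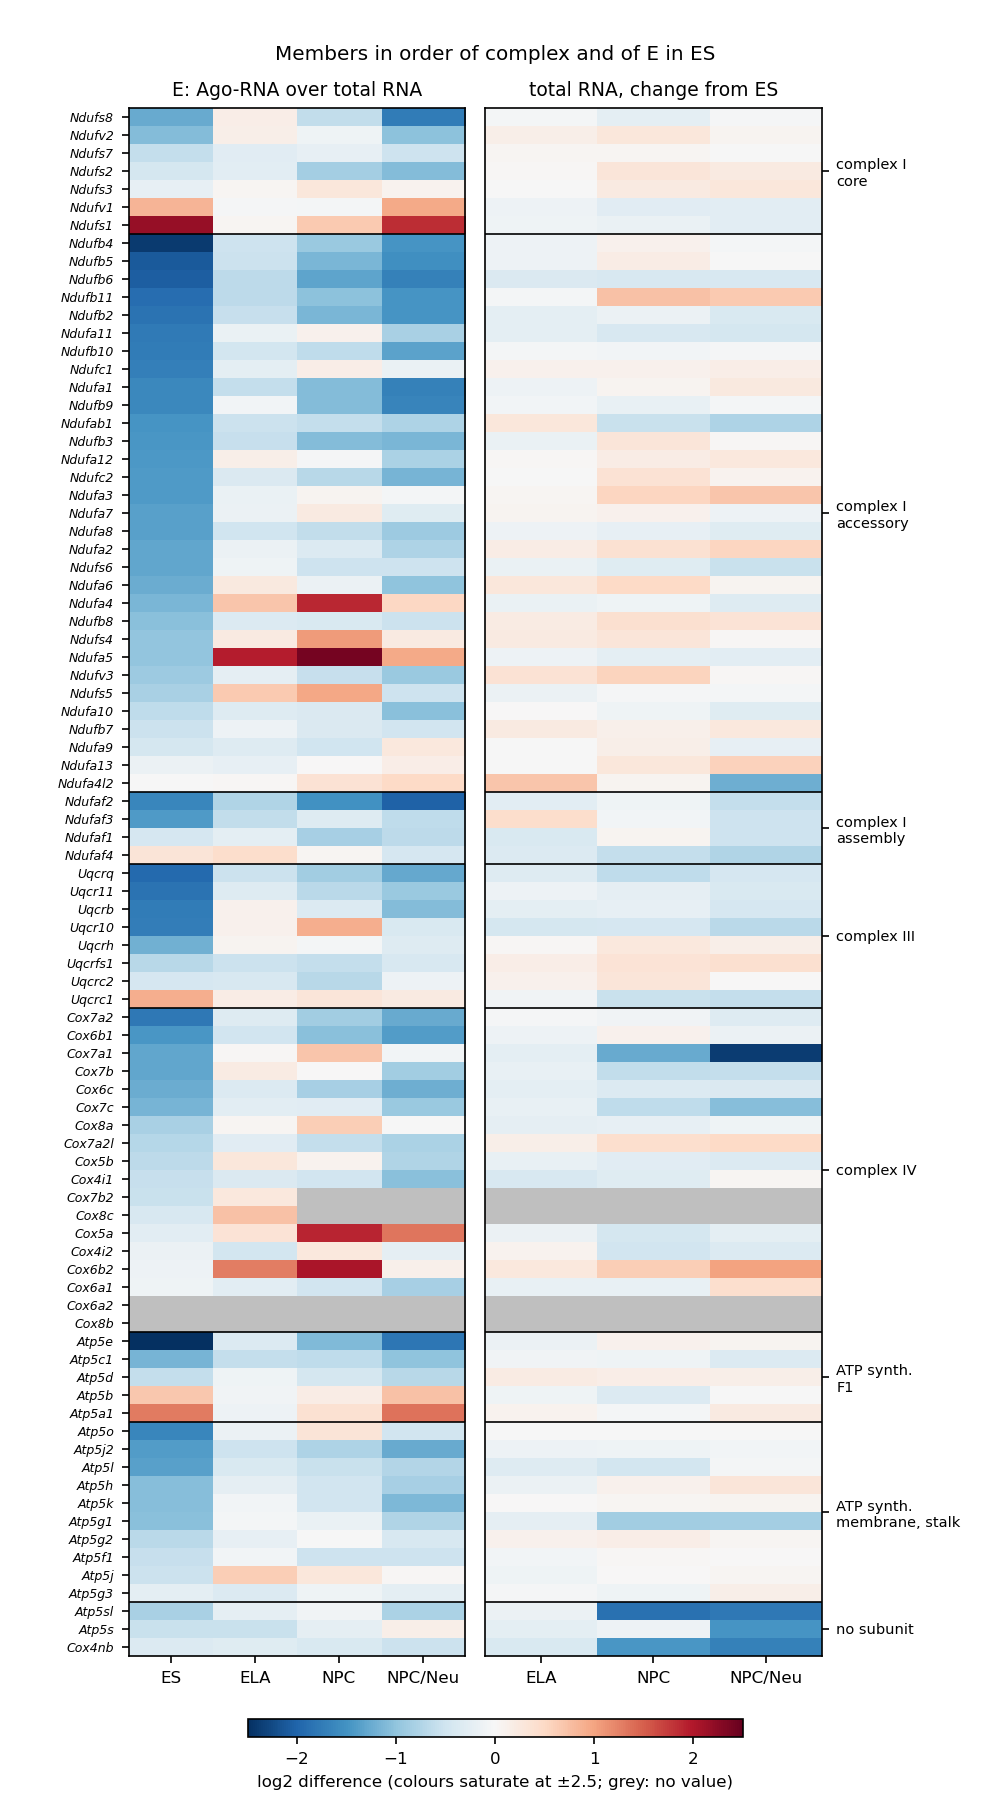
Each row is 1 of the 86 genes, grouped by complex and ordered by E in ES. The left columns give E at the 4 stages and the right columns total RNA relative to ES (log2), on 1 colour scale from -2.5 (blue) to 2.5 (red). On the left, grey marks a gene not well above background on the arrays used. On the right, it marks genes without a probe well above background on all 8 arrays. Cox7b2 and Cox8c are therefore grey there, although they changed by -0.87 and -0.71 from ES to ELA. The left panel is mostly blue in ES and NPC/Neu, and the right panel is pale except for a few genes such as Cox7a1 and Atp5sl. With 75th-percentile scaling the members' median change in total RNA from ES to NPC/Neu was -0.81, against -0.21 for all genes.

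The 2 array values behind the extremes were as follows. Ndufs1 (chr1:63190170-63223396 on mm9, minus strand) had log2 signals in total RNA of 15.49, 15.39, 15.33 and 15.22 in ES, ELA, NPC and NPC/Neu, and in Ago-RNA of 17.66, 15.44, 15.99 and 17.07. Total RNA was nearly level with this normalization, and Ago-RNA was high in ES, like total RNA in ELA, and high again in NPC/Neu. The corresponding E was 2.18, 0.06, 0.66 and 1.85, a 4.52-fold excess in ES. After dividing each array's processed signal by its 75th percentile, E was 1.20 in ES. Total RNA of Ndufs1 then changed by -1.01 from ES to NPC/Neu, so whether it was level depends on the scaling.

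Atp5a1 had a similar course. Its total RNA signals were 16.74, 16.82, 16.70 and 16.96, and those in Ago-RNA 18.04, 16.69, 17.08 and 18.32, so that E was 1.30, -0.13, 0.38 and 1.36. With the 75th-percentile scaling, E of Atp5a1 was 0.04 in ES and 0.90 in NPC/Neu, so neither value reached the threshold. The value in ES was then no higher than that in NPC, 0.06. Ndufv1, with E of 0.86, -0.02, -0.05 and 0.95, and Atp5b, with 0.67, -0.08, 0.19 and 0.73, were likewise higher in ES and NPC/Neu than in ELA and NPC. These 4 and Uqcrc1 were the only subunits with an E above 0.5 in ES. With 75th-percentile scaling, E of Ndufv1 in ES turned to -0.06, close to its -0.10 in NPC.

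Atp5e (chr2:174286573-174289606, minus strand), which encodes a small subunit of the central stalk, was low in Ago-RNA relative to total RNA instead. Its total RNA was at 16.42, 16.26, 16.53 and 16.49, and its Ago-RNA at 13.65, 15.92, 15.42 and 14.69. Ago-RNA was 6.83-fold below total RNA in ES and 1.26-fold below it in ELA. Ndufb4, an accessory subunit of complex I, had total RNA signals of 15.50, 15.37, 15.61 and 15.46 and Ago-RNA signals of 13.12, 14.86, 14.69 and 13.99, with E of -2.39, -0.52, -0.92 and -1.47. Ndufb5, Ndufb6 and Ndufb11, other accessory subunits, had E of -2.10, -2.06 and -1.91 in ES.

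**Figure D3:**
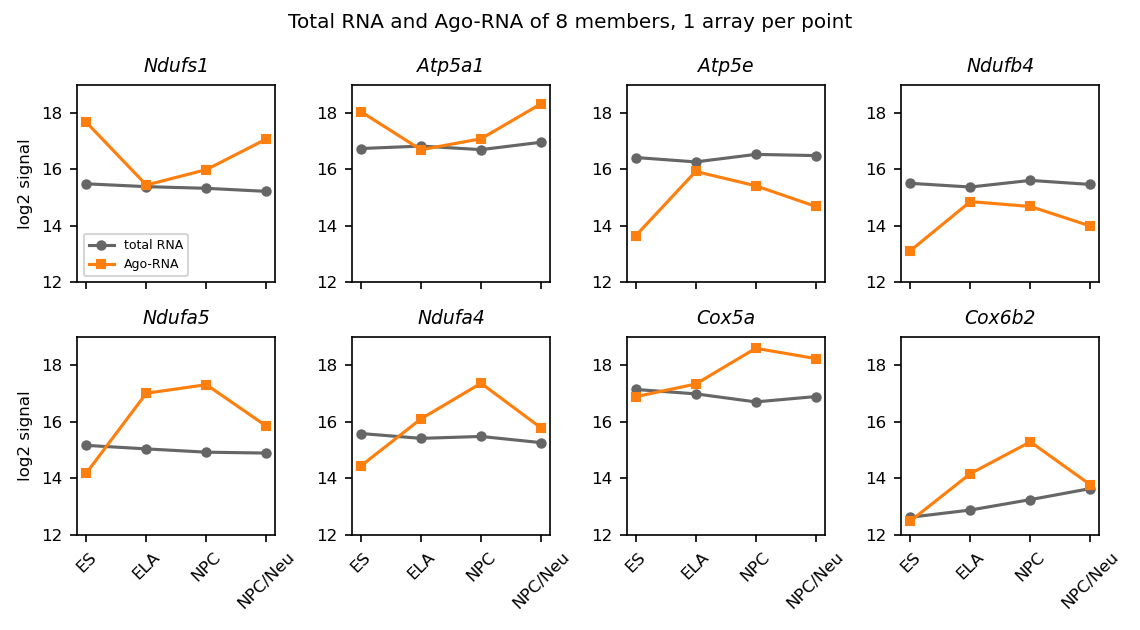
Log2 signal (y axis) in total RNA (grey circles) and Ago-RNA (orange squares) of 8 genes at the 4 stages (x axis), each point from 1 array. The grey lines are nearly level as plotted, except that of Cox6b2. The orange lines run above them in ES for Ndufs1 and Atp5a1, below them for Atp5e and Ndufb4, and above them in NPC for the 4 genes of the lower row. With 75th-percentile scaling E of Atp5a1 in ES was 0.04. Total RNA was then lower in NPC/Neu than in ES for all plotted genes but Cox6b2 (0.70). The log2 change ran from -0.70 for Atp5a1 to -1.13 for Cox5a, with -1.01 for Ndufs1 and -1.07 for Ndufa4.

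Of the 6 genes with a positive E in ES, 5 had coding sequences of 1395 bases or more and 1, Ndufaf4, of 522 bases, a feature that the selection by name did not use. The median coding length of the 86 genes was 420 bases in GENCODE vM1, with a range of 159 to 2184, against 1344 for all genes with an E in ES. Among all 14440 genes, Spearman's rho between E and coding length in ES was 0.64, and over the 84 measured members it was 0.45. These are descriptions across genes that share the same pair of arrays, and genes are not independent replicates. In ELA, rho was 0.28 over all genes and -0.08 over the members.

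Coding length and E moved together through the whole array in ES. The 1944 other genes with a coding sequence under 600 bases had a median E of -0.56 in ES, with quartiles at -1.07 and -0.08, and the 62 members in that class had -1.29. For 600 to 1199 bases, the medians were -0.14 for 4271 other genes and -0.62 for 14 members. For 1200 to 2399 bases, they were 0.33 for 5213 other genes and 0.76 for 8 members, whose values ran from -0.91 to 2.18. In ES, with all arrays quantile normalized together, the members' median was therefore further from 0 than that of other genes in each class, and on the same side. For the longest class this rests on 8 genes and may depend on the scaling. With 75th-percentile scaling, E in ES was -1.13 for Ndufv3, -0.06 for Ndufv1, 0.04 for Atp5a1, 0.72 for Uqcrc1 and 1.20 for Ndufs1. Class medians with that scaling are not given here. In ELA the under-600 medians were -0.12 for other genes and -0.20 for members, and in NPC/Neu -0.37 and -0.78. The part of length in the members' E was not tested beyond these classes.

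**Figure D4:**
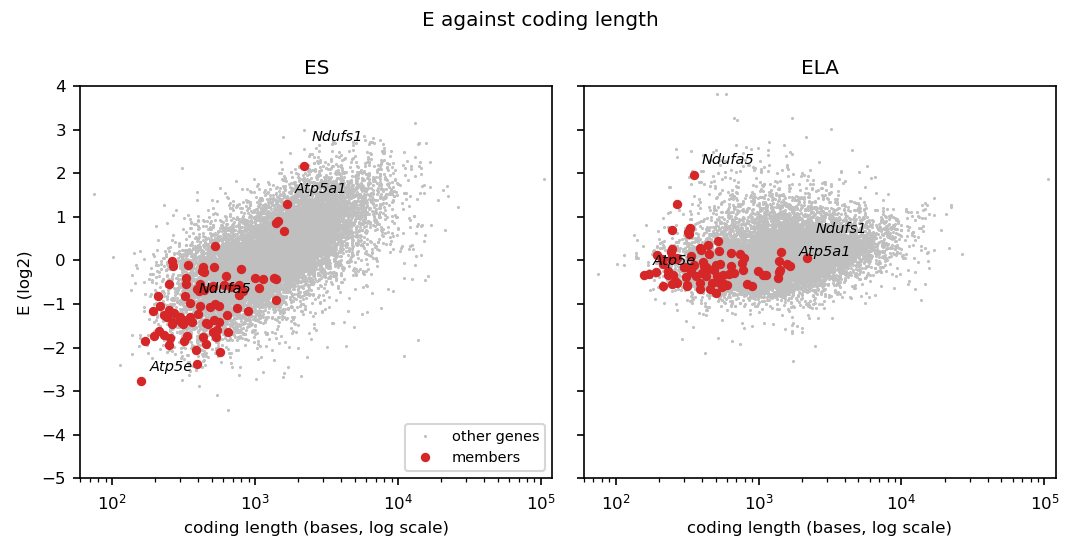
E (y axis, log2) against coding length in bases (x axis, log scale) in ES (left) and ELA (right), with members in red and all other genes in grey, 1 point per gene. In ES the cloud runs from low E at short lengths to high E at long ones. Among the members, Atp5e (159 bases, -2.77) is lowest and Ndufs1 (2184 bases, 2.18) highest there. In ELA the cloud is flatter and Ndufa5 stands above most of it.

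Families of other short genes gave similar medians. The mitochondrial ribosomal protein genes, with a median coding length of 585 bases, had a median E of -0.92 in ES (75 genes), -0.27 for ELA, -0.43 for NPC and -0.78 for NPC/Neu. Cytosolic ribosomal protein genes, with 471 bases, had -0.77 (82 genes), -0.19, -0.27 and -0.52. An E of -1 or lower in ES was found for 31 of 75 and 30 of 82 of them, beside 45 of 84 oxidative phosphorylation genes. The difference between these families was not tested.

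The second question was which transcripts changed their share in Ago-RNA between stages. From ES to ELA, the median change in E of the members was 0.92 (84 genes), against -0.01 for all genes. The change was 1 or higher for 36 of 84, or 42.9%, where the share of all genes was 8.78%, and -1 or lower for Ndufs1 and Atp5a1 alone (2.38%, against 6.82%). By complex, it was 1 or higher for 21 of 31 accessory subunits of complex I and for 5 of 8 genes of complex III. E in ES enters this change with a minus sign, so a gene low in ES and near 0 in ELA gives such a value by construction.

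Ndufs1 met all 3 thresholds for release from Ago between ES and ELA: E of 2 or higher in ES, 0.5 or lower in ELA and a difference of at least 1.5. It was the only member to do so, among 77 of 19939 genes (0.386%). No member met the mirrored thresholds for loading, which 28 genes met (0.140%), although Ndufa5, at 1.97 in ELA, came just short of them. These calls depend on the scaling. With 75th-percentile scaling, E of Ndufs1 in ES was 1.20, under the threshold for release. Ndufa5 met the loading thresholds with that scaling, at -1.24 in ES and 2.07 in ELA, and with each fraction normalized apart, at -0.63 and 2.08.

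From ELA to NPC, the median change in E was -0.17 against 0.04 for all genes. Cox5a (1.55) and Ndufa4 (1.19) had a change of 1 or higher, 2.44% of 82 genes against 1.71% of all, and Ndufb9 alone had -1 or lower (1.22%, against 3.34%). From NPC to NPC/Neu, the median was -0.38 against 0.03, with 6 genes at -1 or lower (7.32%, against 4.18%), namely Cox6b2, Ndufs5, Ndufa5, Ndufa4, Uqcr10 and Ndufs8, and only Ndufs1, at 1.19, at 1 or higher (1.22%, against 2.08%). Over the whole course from ES to NPC/Neu, the median was 0.30 against 0.03, 10 of 82 genes had 1 or higher (12.2%, against 3.95%; 30 against 8.66% with 75th-percentile scaling), and none had -1 or lower, as 4.94% of all genes did. These 10 were Atp5o, Cox5a, Cox7a1, Ndufa3, Ndufa4, Ndufa5, Ndufa7, Ndufc1, Ndufs4 and Uqcr10.

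A few short transcripts went to the opposite side of the average in E during differentiation. Ndufa5 (chr6:24468666-24478013, minus strand), an accessory subunit of the peripheral arm of complex I, had total RNA signals of 15.16, 15.04, 14.92 and 14.89, and Ago-RNA signals of 14.18, 17.01, 17.31 and 15.84. Its E of -0.98 in ES, 1.97 for ELA, 2.39 for NPC and 0.95 for NPC/Neu gave the largest change of any member between ES and ELA, 2.95. Both of its probes, 1 in the coding sequence and 1 in the 3′ UTR, showed it, with -0.94 and -1.02 in ES and 1.98 and 1.95 in ELA. Both also match a second place on chromosome 4, inside Rod1, at 56 of 60 bases, so RNA from there could be read as well.

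Ndufa4 (chr6:11850373-11857446, minus strand) had total RNA signals of 15.58, 15.41, 15.48 and 15.26, and Ago-RNA signals of 14.44, 16.10, 17.36 and 15.78. Its E went from -1.14 in ES through 0.69 in ELA to 1.88 in NPC and 0.52 in NPC/Neu, so that Ago-RNA was 2.21-fold below total RNA in ES and 3.69-fold above it in NPC. Its probe matches 3 other places in the genome at up to 57 of 60 bases.

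Cox5a (chr9:57369039-57380231, plus strand), a nuclear subunit of complex IV, had total RNA signals of 17.14, 16.99, 16.70 and 16.89 and Ago-RNA signals of 16.89, 17.33, 18.60 and 18.23. The E values were -0.26, 0.35, 1.90 and 1.34, highest in NPC and still over the threshold in NPC/Neu. Its probe matches its own transcript at 59 of 60 bases and a place in Plxdc1 at 56. With 75th-percentile scaling, E was -1.30 in ES and 0.80 in NPC/Neu.

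Cox6b2 (chr7:4703396-4704696, minus strand), the testis form of subunit 6b of complex IV, had total RNA signals of 12.62, 12.88, 13.25 and 13.64, and Ago-RNA signals of 12.49, 14.16, 15.29 and 13.77. Its E of -0.14, 1.29, 2.04 and 0.13 was high in ELA and NPC only, and its probe has no match outside the gene. Ndufs4, an accessory subunit of complex I mutated in Leigh syndrome, had E of -0.99, 0.22, 1.06 and 0.23. Ndufs5 (-0.81, 0.66, 0.97 and -0.51) and Uqcr10, a small subunit of complex III (-1.73, 0.11, 0.91 and -0.37), were also highest in NPC and did not reach 1. The probe of Ndufs5 and 2 of the 3 probes of Uqcr10 match another place in the genome.

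Other genes kept a low E at the later stages. Ndufaf2, a complex I assembly factor, had E of -1.64, -0.75, -1.52 and -2.01, the lowest of all members in NPC/Neu. In NPC, the genes at -1 or lower were Atp5e, Cox6b1, Ndufa1, Ndufaf2, Ndufb11, Ndufb2, Ndufb3, Ndufb5, Ndufb6 and Ndufb9, that is, 7 complex I accessory subunits, 1 assembly factor, 1 gene of F1 and 1 of complex IV. With each fraction normalized apart, only Ndufaf2, at -1.05, was still at -1 or lower, and Atp5e was at -0.97.

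The third question was whether the transcripts themselves changed in amount. Total RNA of most members differed little between stages, with medians of -0.11 from ES to ELA (0.02 for all genes), 0.02 from ELA to NPC (-0.05), -0.04 from NPC to NPC/Neu (-0.03) and -0.05 from ES to NPC/Neu (-0.06). The spread of such a change between spots was 0.22 to 0.23. Between ES and ELA, no member changed by 1 or more in either direction, as 4.38% of all genes did downwards and 4.23% upwards. From ELA to NPC, 3 of 82 members were lower by 1 or more (3.66%, against 9.20%), and none higher (9.90% of all). From NPC to NPC/Neu, 3 were lower (3.66%, against 4.11%) and none higher (5.70% of all). From ES to NPC/Neu, 6 were lower (7.32%, against 15.7%) and 1 higher (1.22%, against 15.9%).

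The result for total RNA depends on the scaling. When each array's processed signal was divided by its 75th percentile and no quantile normalization was applied, the median change from ES to NPC/Neu was -0.81 for members and -0.21 for all genes, 28 members were lower by 1 or more, as were 24.5% of all genes, and none was higher. Relative to the median of all genes, members then lay at -0.60, and 12 of them were lower by 1 or more. Whether total RNA of the machinery as a whole was level or lower in NPC/Neu was thus not settled. In bulk samples, fewer cells of a type and less RNA per cell also cannot be told apart.

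The largest change was that of Cox7a1 (chr7:30969190-30971047, plus strand), the heart and muscle form of subunit 7a of complex IV. Its total RNA signals were 12.98, 12.73, 11.71 and 10.60, a 5.18-fold difference between ES and NPC/Neu, or -2.37 on the log2 scale. With the other scaling it was -2.60. Its Ago-RNA signals were 11.68, 12.76, 12.41 and 10.53. Of 3 muscle markers, 1 was above background on each total RNA array, and Myog and Ckm were not, at 6.24 to 6.88. The marker above background, Myh6, a cardiac myosin, was also lower at the later stages, at 9.73, 9.87, 7.30 and 6.98, and the part of muscle-like cells in the Cox7a1 values was not tested.

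Among the other genes lower by 1 or more from ES to NPC/Neu, 3 were the non-subunits. Atp5sl, a factor for complex I assembly in the membrane, had total RNA signals of 14.50, 14.36, 12.64 and 12.71. Cox4nb, which encodes a subunit of the endoplasmic reticulum membrane protein complex, had 14.31, 13.94, 12.85 and 12.63, and Atp5s had 9.34, 9.09, 9.22 and 7.87. Both Atp5sl and Cox4nb dropped below their earlier signals between ELA and NPC, and Atp5s between NPC and NPC/Neu. Ndufa4l2, a target of the hypoxia response that lowers respiration, had 9.36, 10.05, 9.43 and 8.14, highest in ELA.

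Cox7c, a small subunit of complex IV, had an average change of -1.07, but its probes differed. The change was -1.85 for a dim probe that matches its coding transcripts at no more than 28 of 60 bases and as small as -0.60 for a bright one, so the call rests on the dim probe. On the genome, the dim probe matches 1 place inside Cox7c and none outside it. Cox6b2 was the only member higher by 1 or more, at 1.01, and this value was 0.70 with the other scaling. Below the threshold, Ndufa3 was at 0.68 and Ndufb11 at 0.66, both accessory subunits of complex I, and Atp5g1, 1 of 3 genes for subunit c of ATP synthase, at -0.86. With the other scaling, Ndufa3 turned to -0.07, Ndufb11 was at 0.25 and Atp5g1 was at -1.79, past the threshold.

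**Figure D5:**
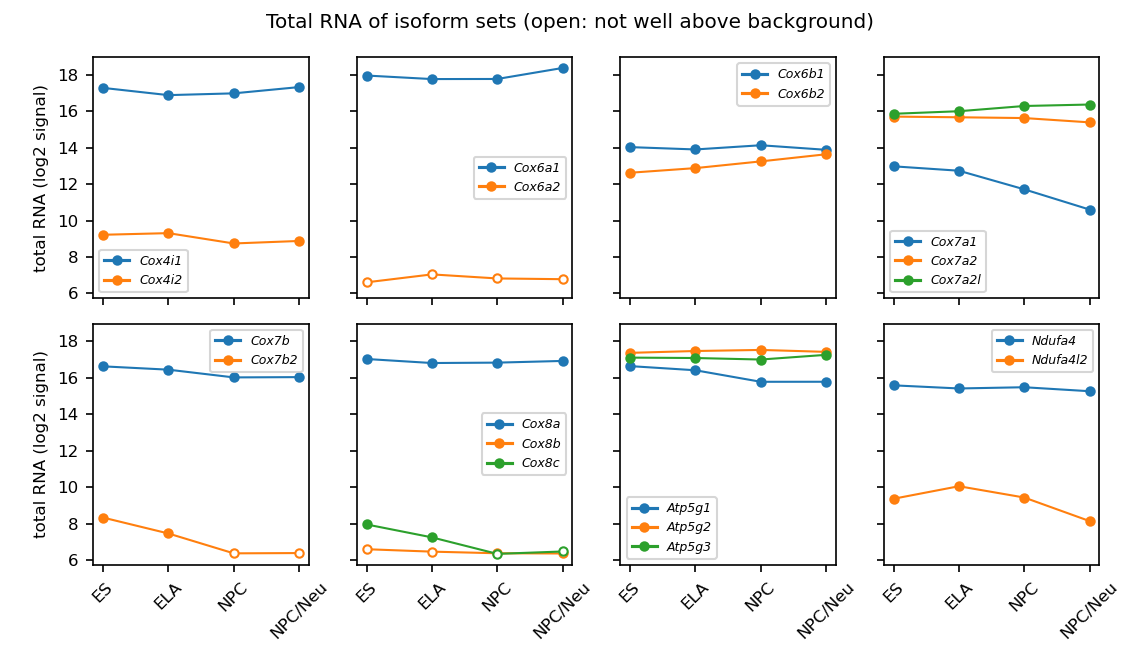
Total RNA log2 signal (y axis) of isoform sets of complex IV, ATP synthase subunit c and Ndufa4 at the 4 stages (x axis), 1 point per array, with open circles where the probe was not well above background. Cox7a1 goes from 12.98 to 10.60 while Cox7a2 and Cox7a2l stay above 15, and Cox6a2, Cox7b2, Cox8b and Cox8c are at or near the background.

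Isoforms expressed in particular tissues were compared by their own course, since levels of different probes cannot be set against each other. Cox4i1, the common form of subunit 4, had total RNA signals of 17.28, 16.88, 16.98 and 17.32, and the hypoxia-linked Cox4i2 of 9.22, 9.31, 8.74 and 8.88, and neither changed by 1. Cox6a1 was at 17.96, 17.76, 17.77 and 18.37, whereas the muscle form Cox6a2 was not well above background on any total RNA array. Cox6b1 stayed between 13.88 and 14.13 while Cox6b2 went from 12.62 to 13.64. Cox7a2 and Cox7a2l, the latter a factor in the joining of complexes III and IV, had differences of -0.32 and 0.51 from ES to NPC/Neu. With 75th-percentile scaling these were -1.11 and -0.29, and those of Cox4i1 and Cox6a1 turned from 0.04 and 0.42 to -0.89 and -0.62. The 3 probes of Cox7a2l differed in E by up to 1.32 in NPC/Neu, from -1.55 to -0.23.

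A pair of isoforms known from testis, Cox7b2 and Cox8c, was well above background only at the early stages. Cox7b2 had total RNA signals of 8.33 in ES and 7.46 in ELA and was not well above background in NPC or NPC/Neu, at least 3.00-fold lower in NPC than in ES and at least 2.91-fold lower in NPC/Neu. Cox8c had 7.95 and 7.24, and was at least 2.31-fold lower in NPC and 2.24-fold lower in NPC/Neu. These bounds are set by the lowest signal well above background on each array. Cox8b, the muscle form, was not well above background on any array. The common forms Cox7b and Cox8a had differences of -0.59 and -0.11, or -1.51 and -0.99 with 75th-percentile scaling.

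Other genes of the pathway gave the surroundings of these values. The 4 genes of complex II, Sdha to Sdhd, had a median change in total RNA from ES to NPC/Neu of 0.12, and none reached 1 in either direction. Sdha, the large catalytic subunit with a long coding sequence, had E of 0.91, -0.15, 0.50 and 1.57, lowest in ELA, as were Ndufs1 and Atp5a1. Cycs, which encodes cytochrome c, had E of -1.86, -0.64, -1.41 and -1.75.

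Assembly factors and regulators had lower medians in total RNA than the members. Of 20 other assembly factors measured, 9 were lower by 1 or more from ES to NPC/Neu and 1, Cox19, was higher, with a median of -0.81. Of 13 regulators, 8 were lower, with a median of -1.11, and they included Tfam (-1.13), which packages mitochondrial DNA, Polg (-1.66), its polymerase, and Tfb2m (-1.11), a transcription factor of mitochondria. Esrrb, also a gene of naive pluripotency, was lowest at -3.64. With the 75th-percentile scaling the medians were -1.04 and -1.18, beside -0.79 for the subunits alone, so the gap between regulators and subunits was smaller there. Glycolysis genes had a median E of 0.96 in ES, and -0.13 with the other scaling, and 4 of 20 were lower and 1 higher in total RNA. Over all genes, 15.7% were lower and 15.9% higher in this comparison, which is the background of the counts for assembly factors, regulators and glycolysis genes.

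Near-identical copies limit what the probes can tell. Of 120 member probes, 73 match at least 54 of 60 bases at a place outside their own gene, up to 51 places for Ndufa1, and 31 probes of 20 genes match all 60 there. With only the probes that have no such match, 43 genes were measured in ES, with a median E of -0.69 and 17 genes (39.5%) at -1 or lower. The same 43 genes had -0.66 with all their probes, and the other 41 had -1.25, with median coding lengths of 522 and 342 bases. A match elsewhere that was better than that to the gene's own coding transcripts was found for 21 probes of 14 genes, namely Atp5c1, Atp5f1, Atp5j2, Atp5k, Atp5l, Atp5o, Cox7a2l, Cox7c, Ndufb11, Uqcr10, Uqcr11, Uqcrb, Uqcrh and Uqcrq. For Atp5o, the lowest of the membrane part and stalk in ES, this was its only probe. Matches elsewhere were sought in the genome, but those to the own gene were counted here in coding transcripts alone. Such probes of most of these genes, that of Atp5o among them, also match at least 54 of 60 bases at a place inside their own gene. Those of Atp5j2 and Atp5k do not, and those of Atp5c1 do in part.

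Between probes of the same gene, E was close in most cases. For the 24 genes with more than 1 probe, the median range of E between probes was 0.25 in ES, 0.11 for ELA, 0.17 for NPC and 0.31 for NPC/Neu. It was over 1 for 2 genes, Cox7a2l and Cox7c, both in NPC/Neu. Uqcrc2, a core protein of complex III, is read by a probe in 10 spots, whose log2 signals in ES were 15.23 ± 0.16 (SD over 10 spots) in total RNA and 14.82 ± 0.12 (SD over 9 spots) in Ago-RNA. These values differ by more than the spread of the spots, which is technical.

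Promoters of these genes hold motifs of factors known to act on mitochondrial genes. Of the 86, 71 had a promoter in RefSeq (GRCm38.p6), from 250 bases before to 50 after the start of the gene. The core of the NRF1 motif, CGCATGCG, which reads the same on both strands, was found in 9 of the 71 (12.7%), against 1.91% of 27025 promoters. The core CCGGAAG of ETS factors such as GABP was in 14 (19.7%, against 9.12%) and ATGGCGGC, the core for YY1, in 7 (9.86%, against 2.38%), both searched on either strand, and 26 (36.6%, against 12.5%) held at least 1 of the 3. The 27025 promoters were not selected for expression in these cells, and a comparison with expressed genes alone was not made. The windows of 3 promoters are shown around the NRF1 core, which is in capitals.
Ndufa8, chr2:36049330-36049357, minus strand: tcgctggagaCGCATGCGcagatggtac
Atp5g2, chr15:102671071-102671098, minus strand: gctccggccgCGCATGCGcagagccttc
Uqcrc1, chr9:108936669-108936696, plus strand: ctccgctctgCGCATGCGcagcgcggct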

How the data were processed

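The deposited scanner files hold spot intensity values of 1-colour Agilent arrays with 60-base probes, which the authors read with Feature Extraction (version 9.1 in the submitters' processing notes, 10.7.3.1 per the file headers). The authors' own later normalization was not used. The mean and background signals were corrected with normexp (offset 50) and quantile normalized over 8 arrays in limma 3.58.1 (R 4.3.3), control and irregular spots were left out, and spots of a probe were averaged. The log2 signals were computed here from the deposited intensities. A gene's value is the mean of those of its probes that were well above background on each array of the comparison. Probes were placed with BLAST 2.17.0 on mm9 and GENCODE vM1. Tables were made with Python 3.11.15, pandas 2.3.3, numpy 2.4.6 and scipy 1.17.1.

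With 1 array per condition, calls are by size alone, at a log2 difference of 1, and no model was fitted. All 8 arrays share 1 slide, and their number limits the precision. Cells of 3 to 10 samples were combined for each precipitation before RNA of 3 experiments was pooled. The genes, lists, microRNAs and motifs were chosen with earlier results of these data known. Named by rule were 52 members: per group the highest and lowest E in ES, the 3 largest differences each way at each step, members past 1 where 10 or fewer, isoform sets, dim members and those whose probes differ by over 1. Other named members were chosen after their values were seen. The calculation was tested on simulated data. Other settings of background correction, scaling, probe filters and gene membership were tried.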

Additional observations from a re-analysis of the deposited data

Results flagged for a closer look

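Ndufa4 passed the threshold in opposite directions at 2 stages, with an E of -1.14 in ES and 1.88 in NPC. Each value is from 1 pair of arrays, and the difference was not tested. With the 75th-percentile scaling the values were -1.40 and 1.73. With each fraction normalized apart they were -0.80 and 1.94, so the value in ES no longer reached the threshold.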

How the results depend on the processing

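No paired analysis was possible because each condition has 1 array, and leaving out a replicate was not possible for the same reason. Of 324 recomputed medians and counts of the members, 281 stayed within the limits set, and no called value of a named gene changed sign. After division of each array's processed signal by its 75th percentile, the median E was -1.48 in ES, the median change in E was 1.26 from ES to ELA and 0.80 from ES to NPC/Neu, and the median change in total RNA was -0.33 from ELA to NPC, -0.34 from NPC to NPC/Neu and -0.81 from ES to NPC/Neu. All genes then had a median E of -0.30 in ES. Members lower in total RNA were 2 from ES to ELA and 28 from ES to NPC/Neu, with 0 higher. Those with E of -1 or lower were 17 in NPC/Neu, and those with 1 or higher 1 in ES and 1 in NPC/Neu. The change in E was -1 or lower for 1 from ES to ELA and 0 from ELA to NPC, and 1 or higher for 30 from ES to NPC/Neu and 0 from NPC to NPC/Neu. With quantile normalization within each fraction, the median E was -0.82 in ES, -0.11 in NPC and -0.40 in NPC/Neu, against 0.16, 0.21 and 0.23 for all genes. E of -1 or lower was then found for 1 in NPC and 15 in NPC/Neu, E of 1 or higher for 8 and 5, and a change in E of -1 or lower from ELA to NPC for 0. Offsets of 0 and 16 each gave 1 member lower in total RNA from ES to ELA and 2 with a change in E of 1 or higher from NPC to NPC/Neu. The quantile normalized processed signal gave 2 and, for a change in E of -1 or lower from ELA to NPC, 0. Among subunits alone, 1 was lower in total RNA from ELA to NPC and 3 from ES to NPC/Neu. With only probes without a match outside the gene, an alternative chosen after seeing the data, the median E in ES was -0.69. E was -1 or lower for 17 in ES, 4 in NPC and 12 in NPC/Neu, and 1 or higher for 1 in ELA and 1 in NPC. The change in E was then 1 or higher for 16 from ES to ELA, 0 from ELA to NPC and 4 from ES to NPC/Neu, and -1 or lower for 3 from NPC to NPC/Neu and 1 from ES to NPC/Neu. The causes were not tested. Signal over background left 4 members without a value on every array.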
